A study of Homo sapiens with 30 samples.

Results

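RUES2 is an established human embryonic stem cell line, and the comparison described here follows it from a day in plain medium to a further day with Activin A, without any Wnt3a. The untreated group, E7, has 2 libraries of cells grown in TeSR E7 medium with a ROCK inhibitor and collected at 24 h. The 2 libraries of E7_ACT began alike, received Activin A (10 ng/mL) on the second day and were collected at 48 h. The comparison is E7_ACT against E7, so it rests on 4 of the 16 RNA samples, and of the 30 samples in the series. None of the 30 samples was kept in medium alone for 48 h. Activin A and the extra 24 h in culture therefore cannot be told apart in this comparison. Beside it stand 3 groups of 2 libraries each that had Wnt3a at 100 ng/mL on the first day: WNT at 24 h, WNT_E7 at 48 h after a second day without Activin A, and WNT_ACT at 48 h after a second day with Activin A at 10 ng/mL. All of these groups grew in the same medium with the ROCK inhibitor and none of them had the BET inhibitor CPI-203, which other groups of the series received. Nothing in the labels tells if the libraries of a group are separate cultures. The p-values come from a fit of 15 libraries of 8 groups with the replicate number as a block. They reflect only the spread between libraries that remained after this block, which may be technical.

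Activin A and Nodal are ligands of the TGF-beta family that bind the same type I and type II receptors on the cell surface. The receptors phosphorylate SMAD2 and SMAD3, which join SMAD4 and enter the nucleus, where FOXH1 is one of their DNA-binding partners. Targets of this pathway include its own ligand NODAL and its own inhibitors, such as the secreted LEFTY proteins and the inhibitory SMADs. In human pluripotent cells a moderate signal helps to maintain NANOG, and a strong signal together with Wnt drives cells towards the primitive streak and endoderm. TeSR E7 is a medium from which TGF-beta has been left out.

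Promoter sequences of 4 genes are shown because the results below turn on them: NODAL, CER1 and WNT3 were low or without counts in E7 and high in E7_ACT, and NANOG is the core pluripotency factor with the largest rise. Each is the 250 bases before the RefSeq gene start in GRCh38.p14, written 5′ to 3′ on the gene's own strand. Capitals mark the short letters that SMAD3 and SMAD4 are known to bind, CAGAC or its reverse complement GTCTG, and a FOXH1 motif, AATNCACA or TGTGNATT. None of the marked matches overlapped another.
NODAL, chr10:70441682-70441931, minus strand: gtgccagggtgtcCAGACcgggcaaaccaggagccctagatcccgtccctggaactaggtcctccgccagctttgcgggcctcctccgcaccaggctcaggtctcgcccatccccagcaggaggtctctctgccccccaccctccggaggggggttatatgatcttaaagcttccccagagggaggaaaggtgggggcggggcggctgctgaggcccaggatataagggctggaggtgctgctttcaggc
CER1, chr9:14722734-14722983, minus strand: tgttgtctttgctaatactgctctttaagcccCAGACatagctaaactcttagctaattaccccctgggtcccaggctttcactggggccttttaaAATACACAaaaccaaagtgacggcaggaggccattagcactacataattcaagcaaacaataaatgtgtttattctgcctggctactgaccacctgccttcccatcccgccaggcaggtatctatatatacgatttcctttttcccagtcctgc
WNT3, chr17:46818693-46818942, minus strand: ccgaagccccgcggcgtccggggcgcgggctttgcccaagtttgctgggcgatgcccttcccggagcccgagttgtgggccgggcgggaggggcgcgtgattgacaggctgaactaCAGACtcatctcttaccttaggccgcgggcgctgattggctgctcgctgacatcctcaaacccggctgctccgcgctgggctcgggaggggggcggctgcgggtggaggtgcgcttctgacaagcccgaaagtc
NANOG, chr12:7789152-7789401, plus strand: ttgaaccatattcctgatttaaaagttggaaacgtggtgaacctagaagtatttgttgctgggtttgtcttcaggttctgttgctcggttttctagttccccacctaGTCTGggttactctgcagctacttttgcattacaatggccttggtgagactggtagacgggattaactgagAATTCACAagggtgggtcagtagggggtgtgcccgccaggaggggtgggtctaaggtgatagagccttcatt
Each of the 4 windows held 1 match to the SMAD letters, and the CER1 and NANOG windows each held 1 match to the FOXH1 letters. The SMAD letters stood in 38.0% of all 35116 windows of the same length, and the FOXH1 letters in 2.89%. Among windows of the genes tested, the shares were 37.2% and 1.89%. Among windows of genes called higher in E7_ACT, 42.3% of 565 held the SMAD letters and 2.12% held the FOXH1 letters. Among windows of genes called lower, the shares were 34.5% and 2.23% of 359 windows. Of the 114 genes described by rule, 86 had a window in the table. LEFTY1, LEFTY2 and POU5F1 had none. A match describes the letters only and is not a binding site.

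The 4 libraries held between 39474994 and 42394430 counts assigned to genes, and between 15899 and 16327 genes had 10 or more counts in each. Levels are given as CPM, which are counts scaled to a common normalised library total. Replicates with the same number deviated together in all 21 pairs of groups, and between E7 and E7_ACT the correlation of these deviations was 0.817. The 2 E7 libraries carried the transcripts that define pluripotent cells, with POU5F1 at 484 and 636 CPM, SOX2 at 278 and 357 CPM and LIN28A at 1973 and 2548 CPM. Of the fibroblast list genes, DCN and FAP had no count in any of the 4 libraries and LUM had 1, whereas COL1A1 was at 177 and 272 CPM, COL1A2 at 97.6 and 82.2 CPM and PDGFRB at 13.1 and 15.2 CPM in E7. Of 626 genes on chromosome 22, 625 had no count in any library used, and these genes could not be assessed.

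A gene is called higher or lower where its Benjamini-Hochberg adjusted p was under 0.05 in edgeR's quasi-likelihood test over 17793 genes. By this rule 741 genes were called, or 4.16% of those tested. Of these, 452 were higher in E7_ACT, which is 2.54% of all genes tested, and 289 were lower, which is 1.62%. These shares are the background for the counts of called list members in this comparison given below. An unadjusted p under 0.05 was reached by 3025 of the 17793 genes, 1662 higher and 1363 lower. That is the background for list counts at that threshold. DESeq2, a second test fitted with the same block, called 699 genes higher and 565 lower. In bulk RNA, fewer cells of a type and less RNA per cell cannot be told apart. Among genes with a mean of 1 CPM or more in the higher group, the largest rises included LEFTY1, LEFTY2, FOXQ1, EBF2, ANGPT1, WNT3 and NODAL. The largest falls included LHX5, IRX1, ECEL1P2, PKDCC, BNC1 and INHBA. A log2 fold change of at least 1 was reached by 197 of the genes called higher and 161 of those called lower, and one of at least 3 by 32 and 10. The same fit without the replicate block called 50 genes, 33 higher and 17 lower. Leaving out 1 of the 4 libraries left between 109 and 226 calls, of which between 79 and 145 were higher.

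**Figure D1:**
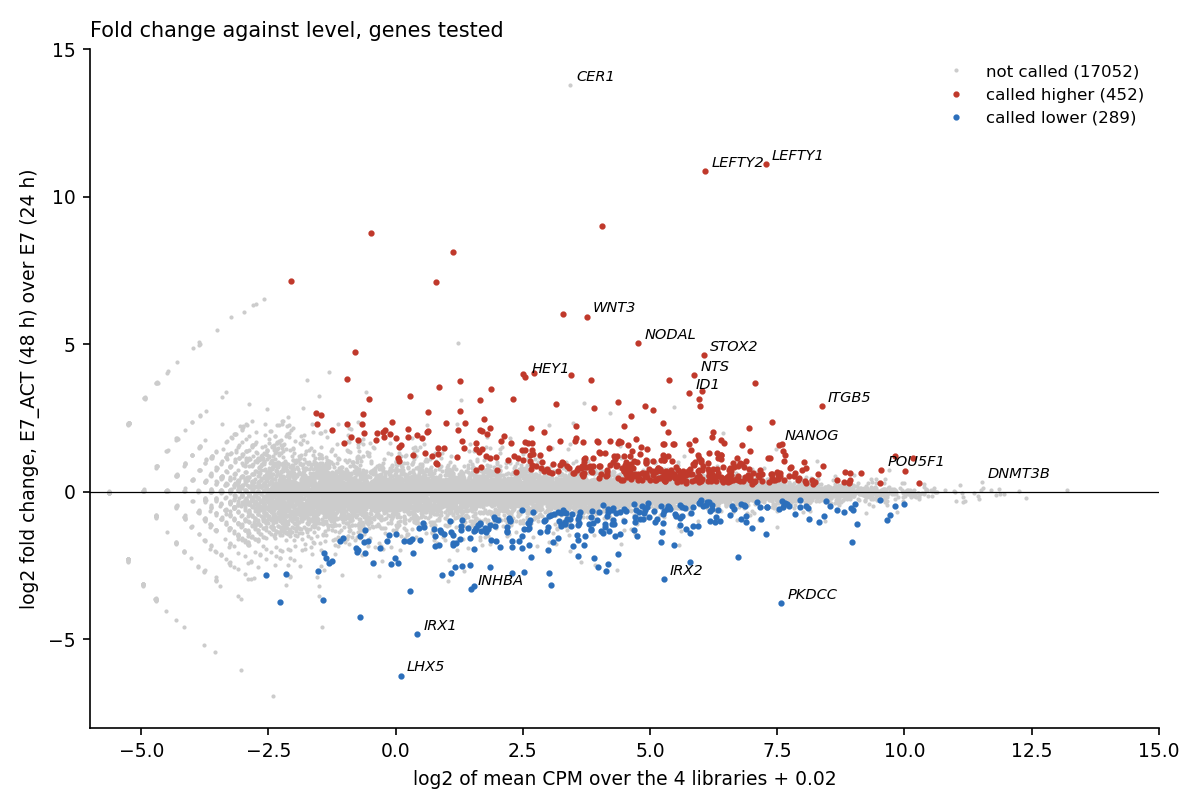
Each point is 1 of the 17793 genes tested, with the log2 of its mean CPM over the 4 libraries plus 0.02 on the horizontal axis and the log2 fold change of E7_ACT over E7 on the vertical axis. The 452 genes called higher are red and the 289 called lower are blue, and LEFTY1 and LEFTY2 stand highest among the called genes, while CER1, at 0 counts in E7, stands higher but was not called and its fitted value is not an estimate of a fold.

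Of the 114 genes chosen for description, 74 were called, and 22 of these were called whichever of the 4 libraries was left out. The 22 were EBF2, HAGLR, NTS, LPAR6, ID1, HEY1, SMAD7, ITGB5, PCSK5, NANOG, MMP2, SMAD3, POU5F1 and FURIN, all higher, and INHBA, SEZ6, IRX2, FOXL2NB, SYNDIG1L, IGFBP3, NEFL and CHGA, all lower. A further 23 were called in none of the 4 fits with a library left out, among them NODAL, LEFTY2, ANGPT1 and IRX1. None of the 74 changed direction, but these fits share libraries with the main one and the 74 were chosen as called genes.

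Among ligands, NODAL rose from 1.53 and 1.63 CPM in E7 to 64.0 and 41.5 CPM in E7_ACT. Both Activin A libraries lay far above both untreated libraries, with a log2 fold change of 5.04 ± 1.09 (SE) and an adjusted p of 0.0297. INHBA, which encodes the subunit of which Activin A itself is the dimer, went the other way. Its level was 5.66 and 4.41 CPM in E7 and 0.602 and 0.407 CPM in E7_ACT, a log2 fold change of -3.31 ± 0.40 with an adjusted p of 0.00181. GDF3, a further ligand of the family, stood at 6.71 and 15.6 CPM and then at 26.6 and 36.3 CPM, which did not pass the test at an adjusted p of 0.240. GDF1, INHBB, INHBC and INHBE stayed below 17 CPM in all 4 libraries and none was called. The Nodal co-receptor CRIPTO, also known as TDGF1, was abundant throughout at 537 and 901 CPM and then 389 and 709 CPM, with an adjusted p of 0.362.

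Nodal is made as a precursor that proprotein convertases cleave, and 2 of the 3 convertases on the list rose. PCSK5 rose from 21.1 and 17.0 CPM to 62.9 and 53.3 CPM, a 3.06-fold change with an adjusted p of 0.000177. FURIN rose from 41.5 and 50.8 CPM to 65.4 and 90.5 CPM, a 1.67-fold change with an adjusted p of 0.00227. PCSK6 was at 5.92 and 5.25 CPM and then 6.10 and 7.14 CPM and did not pass the test. In all, 3 of the 11 tested genes for ligands, cofactors and processing were called higher and 1 lower, with a median log2 fold change of 0.23, against a median of -0.00029 over all genes tested. CFC1, the other gene of the list, had 1 count in the 4 libraries together and was not tested. Without any single library NODAL missed the threshold, with adjusted p-values from 0.0957 without E7_ACT replicate 2 to 0.215 without E7 replicate 1, while its log2 fold change kept its direction.

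Receptors and SMADs moved little by comparison. The type I receptor ACVR1B was at 30.9 and 30.3 CPM in E7 and 23.4 and 27.4 CPM in E7_ACT, and the type II receptor ACVR2B at 174 and 145 CPM and then 204 and 164 CPM. Neither passed the test. SMAD3 rose from 16.9 and 16.8 CPM to 33.5 and 36.1 CPM, a 2.06-fold change with an adjusted p of 0.00244. SMAD2 stood at 78.7 and 68.9 CPM and then 90.0 and 69.2 CPM, SMAD4 at 118 and 114 CPM and then 115 and 113 CPM, and FOXH1 at 30.2 and 56.2 CPM and then 36.3 and 63.1 CPM. The groups overlapped for these 3 genes. SMAD3 was the 1 gene called among the 11 on this list, whose log2 fold changes ran from -0.28 to 1.04.

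Antagonists held the largest changes of the pathway. LEFTY1 had 12 counts in the 2 E7 libraries together and 25121 in the 2 E7_ACT libraries, or 0.191 and 0.0959 CPM against 374 and 243 CPM. LEFTY2 had 6 counts against 10941, or 0.0716 and 0.0719 CPM against 142 and 129 CPM. Both were near the detection floor in E7 and far above it in E7_ACT, with log2 fold changes of 11.11 ± 1.62 and 10.86 ± 2.03 and adjusted p-values of 0.00456 and 0.0148. LEFTY1 and LEFTY2 are near-identical in sequence, so reads may have been shared or lost between them, and how the authors counted such reads is not given in the sources used here. CER1, a secreted antagonist of Nodal and BMP, had no count in E7 and 1763 counts in E7_ACT, at 30.0 and 13.1 CPM. Against a floor of 3 counts over the group this is at least 608-fold higher, yet with an adjusted p of 0.0701 it was not called. It was called at an adjusted p of 0.0411 when no filter on low counts was applied.

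The intracellular inhibitors rose as well. SMAD7, which blocks the activated receptors, went from 11.1 and 14.6 CPM to 117 and 106 CPM, an 8.78-fold change with an adjusted p of 0.00228. SMAD6 went from 0.764 and 0.527 CPM to 6.53 and 4.70 CPM, with an adjusted p of 0.00415. BAMBI, a receptor without a kinase domain, went from 6.02 and 8.22 CPM to 36.6 and 48.5 CPM, with an adjusted p of 0.00646. PMEPA1, a membrane protein that holds SMAD2 and SMAD3, went from 8.12 and 9.09 CPM to 61.7 and 54.5 CPM, with an adjusted p of 0.00448. The ubiquitin ligase SMURF1 rose 1.40-fold, from 34.7 and 39.9 CPM to 48.6 and 55.8 CPM. In each of these 5 called genes the lower Activin A library stood above the higher untreated library. The same was so for 14.3% of all genes tested.

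Other antagonists did not pass. SKIL, a SMAD corepressor, was at 98.2 and 87.1 CPM and then 343 and 187 CPM, with an adjusted p of 0.0925. LDLRAD4 was at 0.525 and 0.503 CPM and then 3.18 and 1.85 CPM, with an adjusted p of 0.0702. Follistatin, the FST product that binds Activin A itself, was at 12.6 and 13.2 CPM and then 16.9 and 10.4 CPM, and FSTL3 had an adjusted p of 0.985. In all 7 of 20 antagonists and negative regulators were called higher and none lower, beside 2.54% and 1.62% of all genes tested. The list had a median log2 fold change of 0.50. DESeq2 called 10 higher and none lower, where it called 699 higher and 565 lower over all 17793 genes. In edgeR 13 had an unadjusted p under 0.05, none of them with a lower level. Over all genes 1662 had such a p with a higher level and 1363 with a lower one. Between 1 and 5 of the 7 calls remained when a library was left out: SMAD7 in all 4 fits, LEFTY2 and SMURF1 in none. LEFTY1 missed the threshold without E7 replicate 1 at an adjusted p of 0.0792 and without E7 replicate 2 at 0.0621. BAMBI and PMEPA1 missed it without either E7 library or E7_ACT replicate 1, and SMAD6 without either E7 library, with adjusted p-values up to 0.0800.

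**Figure D2:**
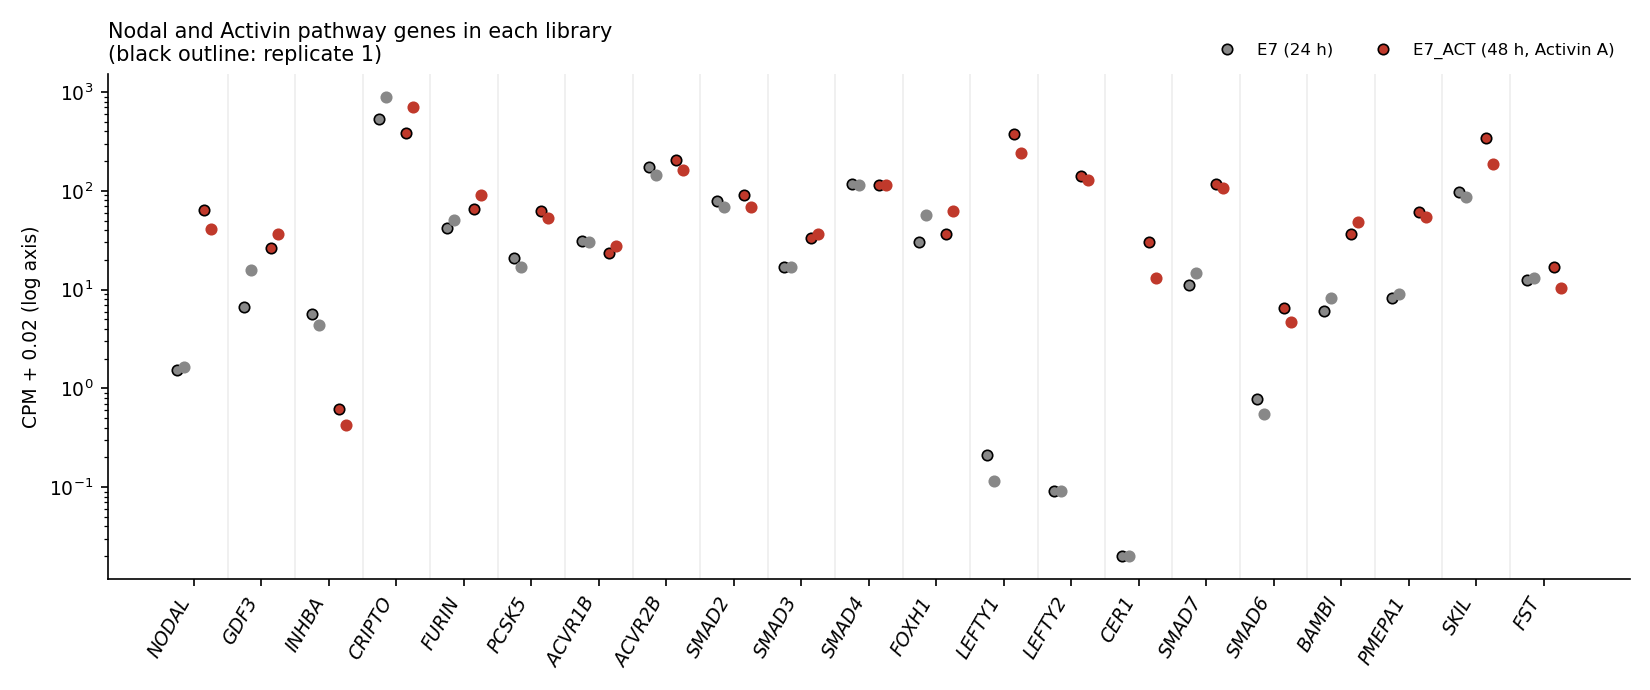
CPM plus 0.02 on a log axis for 21 genes of the Nodal and Activin pathway, ordered as ligands, cofactor and processing enzymes, receptors, SMADs and FOXH1, and antagonists. Grey points are the 2 E7 libraries and red points the 2 E7_ACT libraries, with a black outline for replicate 1, and NODAL, LEFTY1, LEFTY2, CER1, SMAD7, BAMBI and PMEPA1 show a clear gap between the groups while SMAD2, SMAD4, FOXH1 and FST overlap.

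WNT3, a Wnt ligand that is needed for gastrulation in the mouse, rose from 0.454 and 0.408 CPM to 33.8 and 19.3 CPM, a log2 fold change of 5.94 ± 0.93 with an adjusted p of 0.00627. ANGPT1, a ligand of the endothelial receptor TIE2, rose from 0.215 and 0.336 CPM to 25.7 and 12.7 CPM, with an adjusted p of 0.0136. Both had been close to absent in the untreated cells. EBF2, a transcription factor of the early B-cell factor family, had 1 count against 356, a ratio of 368 with an exact 95% counting interval from 65.6 to 14577. FOXQ1, a forkhead factor, had none against 114, which is at least 39.3-fold higher against a floor of 3 counts over the group. HAGLR, a non-coding transcript of the HOXD region, had 3 against 87, a ratio of 30.0 with an interval from 9.92 to 148. These intervals and floors cover counting error only. LINC01844 rose from 1.00 and 0.503 CPM to 13.8 and 11.0 CPM. Of these genes, EBF2 and HAGLR were called with any single library left out. FOXQ1 and WNT3 were called only without E7_ACT replicate 2, with adjusted p-values otherwise up to 0.0895, LINC01844 was lost without E7 replicate 2 at 0.0790 and without E7_ACT replicate 1 at 0.0644, and ANGPT1 was lost without any 1 of them.

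STOX2 and NTS were chosen to mark this comparison with its results known, so their tests are given as a description. STOX2, a winged-helix protein of the storkhead family, was at 6.09 and 4.0 CPM in E7 and at 165 and 89.9 CPM in E7_ACT. The 24.9-fold change had an adjusted p of 0.00417, and it missed the threshold without E7 replicate 1 at 0.0598 and without E7 replicate 2 at 0.0621. STOX2 was also at 27.3 and 21.0 CPM in WNT and at 94.9 and 78.7 CPM in WNT_ACT. Its change was not called different from that in WNT_ACT against WNT, with an adjusted p of 0.227. NTS encodes the precursor of the peptide neurotensin. It was at 6.40 and 7.67 CPM in E7 and at 126 and 93.1 CPM in E7_ACT, a 15.5-fold change with an adjusted p of 0.000188.

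The falls were led by LHX5, a LIM homeobox gene of the forebrain. It had 174 counts in E7 and 2 in E7_ACT, a ratio of 84.2 with an exact 95% counting interval from 23.0 to 700.4, and an adjusted p of 0.00865. IRX2, IRX1 and IRX2-DT of the Iroquois cluster on chromosome 5 were named because they were among the largest falls. Other transcripts of the cluster are not described here. IRX2 went from 72.7 and 63.9 CPM to 8.84 and 8.56 CPM, a 7.83-fold drop with an adjusted p of 0.00100. IRX1 went from 2.10 and 3.02 CPM to 0.0482 and 0.127 CPM, and IRX2-DT, which is transcribed away from IRX2, from 4.61 and 5.87 CPM to 0.482 and 0.661 CPM. A drop in both replicate pairs was part of the rule by which they were named. Since the strand setting of the counting is not given in the sources used here, overlapping reads of IRX2 and IRX2-DT cannot be told apart.

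PKDCC, a secreted tyrosine kinase, was the most abundant of the 12 genes with the largest falls. It went from 335 and 380 CPM to 24.1 and 28.0 CPM, a 13.7-fold drop with an adjusted p of 0.00286. SEZ6, a neuronal membrane protein, went from 12.6 and 17.2 CPM to 1.25 and 2.13 CPM, with an adjusted p of 0.000577. PAPPA, a protease that cleaves IGF-binding proteins, went from 3.87 and 2.69 CPM to 0.482 and 0.457 CPM. FOXL2NB, which lies beside FOXL2, went from 13.1 and 14.9 CPM to 2.02 and 2.08 CPM, and SYNDIG1L from 8.98 and 8.03 CPM to 1.08 and 1.42 CPM. BNC1, a zinc finger factor, went from 1.10 and 3.24 CPM to 0.0241 and 0.407 CPM, and the pseudogene ECEL1P2 from 94 counts to 5. No gene of these 7 had overlapping groups, as was so for 13.4% of all genes tested in this direction. The 7 were chosen as called genes, and of the 741 called genes 60 had overlapping groups. PKDCC was lost without E7_ACT replicate 1 at an adjusted p of 0.0573 and BNC1 without E7 replicate 2 at 0.0793. LHX5, ECEL1P2 and PAPPA were called only without E7 replicate 2, IRX2-DT was lost without either E7_ACT library, and IRX1 without any 1 library, with adjusted p-values up to 0.224.

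The core pluripotency factors did not move as a block. NANOG rose from 71.7 and 113 CPM to 235 and 318 CPM, a 3.03-fold change with an adjusted p of 0.000877. POU5F1 rose from 484 and 636 CPM to 882 and 979 CPM, a 1.67-fold change with an adjusted p of 0.00148. SOX2 was at 278 and 357 CPM and then 282 and 346 CPM, so its groups overlapped. Both risen genes have expressed or near-identical pseudogenes. NANOGP8, whose sequence is close to that of NANOG, had a log2 fold change of 1.52 beside 1.60 for NANOG, and reads of the pair cannot be told apart here. Neither NANOG nor POU5F1 was called without the replicate block, with adjusted p-values of 0.120 and 0.189.

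Over the wider list of 24 pluripotency genes, which includes these 3, 2 were called higher and 1 lower, with a median log2 fold change of 0.06. The third call was VRTN, which went from 256 and 368 CPM to 200 and 241 CPM. DNMT3B, the de novo DNA methyltransferase of primed pluripotent cells, was at 2312 and 2912 CPM and then 3088 and 3431 CPM, with an adjusted p of 0.0996. Among 14 genes of the primed state 2 were called higher and 1 lower, with a median log2 fold change of -0.16. DUSP6, a phosphatase of the MAPK pathway, rose 1.66-fold with an adjusted p of 0.0378, and THY1, a surface antigen of human stem cells, rose 1.55-fold with an adjusted p of 0.00614. VRTN, DUSP6 and THY1 each missed the threshold without any 1 of the 4 libraries, with adjusted p-values from 0.0516 to 0.302. None of 12 tested genes of the naive state was called, by edgeR or by DESeq2, and none had an unadjusted p under 0.05.

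BMP target genes are listed because SMAD1 and SMAD5, which other type I receptors activate, drive them. Of 14 such genes 8 were called higher and none lower, beside 2.54% and 1.62% of all genes tested. The list had a median log2 fold change of 1.58. ID1, an inhibitor of basic helix-loop-helix factors, rose from 6.30 and 14.8 CPM to 86.6 and 111 CPM, a 10.2-fold change with an adjusted p of 0.000177. HEY1, a repressor that also answers to Notch, rose from 0.883 and 0.551 CPM to 10.3 and 11.5 CPM, a 14.9-fold change with an adjusted p of 0.00156. In both genes the groups were far apart.

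Of the other calls on this list, ID4 went from 3.58 and 3.43 CPM to 10.3 and 8.41 CPM. GATA2 went from 0.310 and 0.384 CPM to 1.13 and 1.17 CPM, and GATA3 from 0.0955 and 0.192 CPM to 1.61 and 0.813 CPM, which are low levels throughout. The remaining 3 calls were SMAD6, SMAD7 and BAMBI, which also stand among the Nodal antagonists. ID2 was level at 16.0 and 13.8 CPM and then 18.4 and 13.5 CPM, and ID3 was lower, at 115 and 161 CPM and then 59.7 and 83.8 CPM, with an adjusted p of 0.148. So the ID genes did not share a direction. Leaving out a library left between 3 and 7 of the 8 calls. GATA2 was lost without any 1 library and GATA3 without each but E7_ACT replicate 2, with adjusted p-values up to 0.215.

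The BMP ligands and their antagonists themselves had 2 genes higher and 1 lower of 10. BMP7 went from 5.59 and 9.35 CPM to 8.12 and 19.3 CPM, where the groups overlapped, and GREM1, a secreted BMP antagonist, from 0.382 and 0.360 CPM to 1.76 and 1.14 CPM. CHRD, which encodes the antagonist chordin, fell from 1.74 and 0.767 CPM to 0.337 and 0.305 CPM, with an adjusted p of 0.0126. BMP4 was at 2.08 and 2.88 CPM and then 3.01 and 3.13 CPM, and BMP2 at 2.89 and 3.91 CPM and then 1.52 and 1.65 CPM, and neither passed. Calls for GREM1 and CHRD held only without E7_ACT replicate 2, and that for BMP7 in no fit with a library left out, with adjusted p-values up to 0.335.

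Calls on the primitive streak and endoderm lists are set beside 2.54% higher and 1.62% lower over all genes tested. Of 19 streak and early mesoderm genes WNT3 alone was called, and of 17 endoderm and anterior streak genes none was, with 3 under an unadjusted p of 0.05 in each list. DESeq2 called 2 and 1, all higher. TBXT, the Brachyury factor of the streak, was at 0.263 and 0.168 CPM and then 0.385 and 0.229 CPM. EOMES was at 0.263 and 0.0959 CPM and then 1.64 and 0.305 CPM, and MIXL1 at 0.477 and 0.575 CPM and then 4.58 and 3.99 CPM. For EOMES and MIXL1 the groups did not overlap, as was so for 14.3% of all genes in this direction, and their adjusted p-values were 0.318 and 0.354. The p-values draw on the spread within groups over all 15 libraries. WNT_ACT is among these, where CER1 was at 1974 and 123 CPM. How far that spread set the p-values was not tested, so a missed call does not show an unchanged level. FGF8 went from 11 counts to 367, a ratio of 34.5, with an adjusted p of 0.0757. CER1, which is also on the endoderm list, went from no count to 30.0 and 13.1 CPM, as given above, and is the gene that DESeq2 called there.

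SOX17, the endoderm factor, had 1 count in the 4 libraries. GATA6 was at 0.239 and 0.0480 CPM and then 0.0482 and 0.0762 CPM, and FOXA2 at 4.68 and 2.42 CPM and then 0.819 and 0.152 CPM, with an adjusted p of 0.180. In WNT_ACT the same genes were well expressed: TBXT was at 79.4 and 30.6 CPM, EOMES at 483 and 84.0 CPM, MIXL1 at 795 and 105 CPM, and SOX17 at 41.6 and 7.56 CPM. In WNT_ACT against WNT, where 5.78% of all genes were called higher and 3.48% lower, 11 of the 19 streak genes were called higher and 1 lower, and 10 of the 17 endoderm genes higher. The list medians were 2.76 and 3.44 there, against 0.50 and 0.07 in E7_ACT against E7. Of all these genes, APLNR was the 1 whose 2 log2 fold changes were called different.

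**Figure D3:**
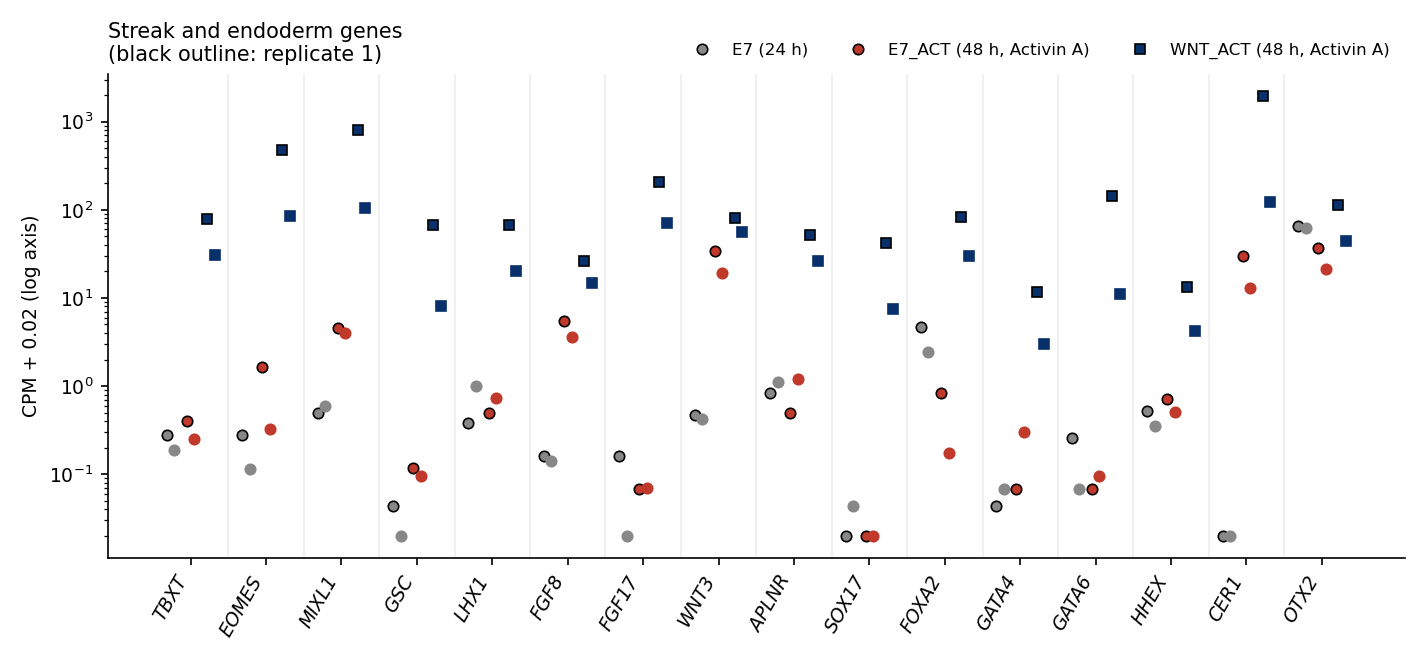
CPM plus 0.02 on a log axis for 16 genes of the primitive streak, mesoderm and endoderm in E7 (grey), E7_ACT (red) and WNT_ACT (dark blue squares), with a black outline for replicate 1. The E7_ACT libraries lie near E7 for TBXT, LHX1, SOX17, GATA6 and HHEX and above it for MIXL1, FGF8, WNT3 and CER1, and WNT_ACT lies above E7_ACT in each gene shown.

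Markers of neuroectoderm had LHX5 as their single call among 17, and a median log2 fold change of -0.77. SOX1 was at 1.81 and 2.35 CPM and then 1.37 and 2.16 CPM, and PAX6 was below 0.3 CPM in all 4 libraries. POU3F1 was at 34.7 and 37.2 CPM and then 13.0 and 22.7 CPM, with an adjusted p of 0.0958. Of the 17 genes, 7 had an unadjusted p under 0.05, 6 of them with a lower level in E7_ACT. Over all 17793 genes tested, 3025 had such a p, 1363 of them with a lower level. Among 17 neuronal and secretory genes, 4 were lower. CHGA, the granule protein chromogranin A, went from 65.6 and 105 CPM to 30.0 and 46.7 CPM, and the neurofilament gene NEFL from 19.2 and 21.5 CPM to 6.26 and 10.5 CPM. VGF and NEFM were the other 2, and NTS and GAP43 were the 2 called higher. VGF was lost without any 1 library, with adjusted p-values up to 0.169.

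Adhesion genes included some of the most abundant changes. ITGB5, the beta subunit of a vitronectin receptor, rose from 70.5 and 86.5 CPM to 538 and 631 CPM, a 7.47-fold change with an adjusted p of 0.00181. FN1, which encodes fibronectin, rose from 86.6 and 134 CPM to 249.8 and 316 CPM, and its receptor subunit ITGA5 from 28.3 and 31.3 CPM to 40.2 and 56.1 CPM. ITGA6, a laminin receptor subunit, fell from 415 and 312 CPM to 209.6 and 176 CPM. That made 3 of 18 basement membrane and adhesion genes higher and 1 lower.

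Among 14 mesenchymal transition genes 4 were called higher, of which FN1 and ITGA5 are 2. MMP2, a matrix protease, rose from 40.2 and 42.4 CPM to 104 and 98.6 CPM, with an adjusted p of 0.000177, and CDH2, N-cadherin, from 37.7 and 35.0 CPM to 95.7 and 79.1 CPM, with an adjusted p of 0.0375. Of 17 epithelial genes 2 were lower: ELF3, from 10.0 and 11.8 CPM to 3.64 and 6.28 CPM, and CLDN6, from 457 and 746 CPM to 344 and 552 CPM, where the groups overlapped but both replicate pairs fell. FN1, CDH2, ITGA6 and ELF3 were lost without any 1 library, ITGA5 without each but E7_ACT replicate 1, and CLDN6 without each but E7_ACT replicate 2, with adjusted p-values up to 0.249.

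On a list of 16 genes that TGF-beta is known to induce in fibroblasts and other cells, 1 higher and 5 lower had an unadjusted p under 0.05. None was called higher and 2 were called lower, beside shares of 2.54% and 1.62% over all genes tested. COL1A1 went from 177 and 272 CPM to 56.4 and 117 CPM, and IGFBP3, an IGF-binding protein, from 8.24 and 7.94 CPM to 2.05 and 3.18 CPM. COL1A1 was lost without E7 replicate 1 at an adjusted p of 0.0598 and without E7_ACT replicate 1 at 0.0810.

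Canonical Wnt targets split, with 2 higher and 2 lower of 14. AXIN2, a feedback inhibitor, fell from 51.1 and 57.8 CPM to 18.1 and 23.8 CPM, a 2.59-fold drop with an adjusted p of 0.00392. LEF1 fell from 2.29 and 0.911 CPM to 0.434 and 0.229 CPM. The rises were in LGR5, from 5 counts to 76, and NOTUM, from 8 counts to 48. All but AXIN2 were lost without any 1 library, with adjusted p-values up to 0.301, and AXIN2 without E7_ACT replicate 1 at 0.0573. Of 14 FGF and MAPK targets DUSP6 rose, as above, and 2 fell. DUSP4 went from 8.28 and 12.3 CPM to 3.16 and 4.90 CPM and PHLDA1 from 61.1 and 68.1 CPM to 24.0 and 38.5 CPM, and each lost its call without 2 or more of the libraries.

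Lists for growth and stress held few calls. No gene was called in S phase (17 tested), G2 and M phase (18), ribosome biogenesis (19), the unfolded protein and amino acid stress list (12), hypoxia and glycolysis (17) or neural crest and placode (11). In these 6 lists between 1 and 4 genes had an unadjusted p under 0.05, beside 3025 of all 17793 genes tested. DESeq2 called 2 genes in G2 and M phase, 1 each way, and 1 lower in hypoxia and glycolysis. Of 19 cholesterol synthesis genes HMGCS1 and SQLE were lower, with 12 lower at an unadjusted p under 0.05 and none higher, and 5 called lower when libraries were scaled by their totals alone. FAS was the single p53 target called, lower, of 17. AXL and AJUBA were the 2 called lower of 15 YAP and TEAD targets, and IER2 was called higher among 14 immediate early genes. Among 9 trophoblast and amnion genes GATA2, GATA3 and IGFBP3 were called, and among 5 fibroblast genes PDGFRB rose and COL1A1 fell. The summed level of the fibroblast list was 298 and 388 CPM in E7 and 158 and 246 CPM in E7_ACT, most of it from COL1A1 and COL1A2, and its part in other results was not tested. HMGCS1, SQLE, FAS, AXL, AJUBA, IER2 and PDGFRB each lost the call in 3 or 4 of the fits with a library left out, with adjusted p-values up to 0.281.

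**Figure D4:**
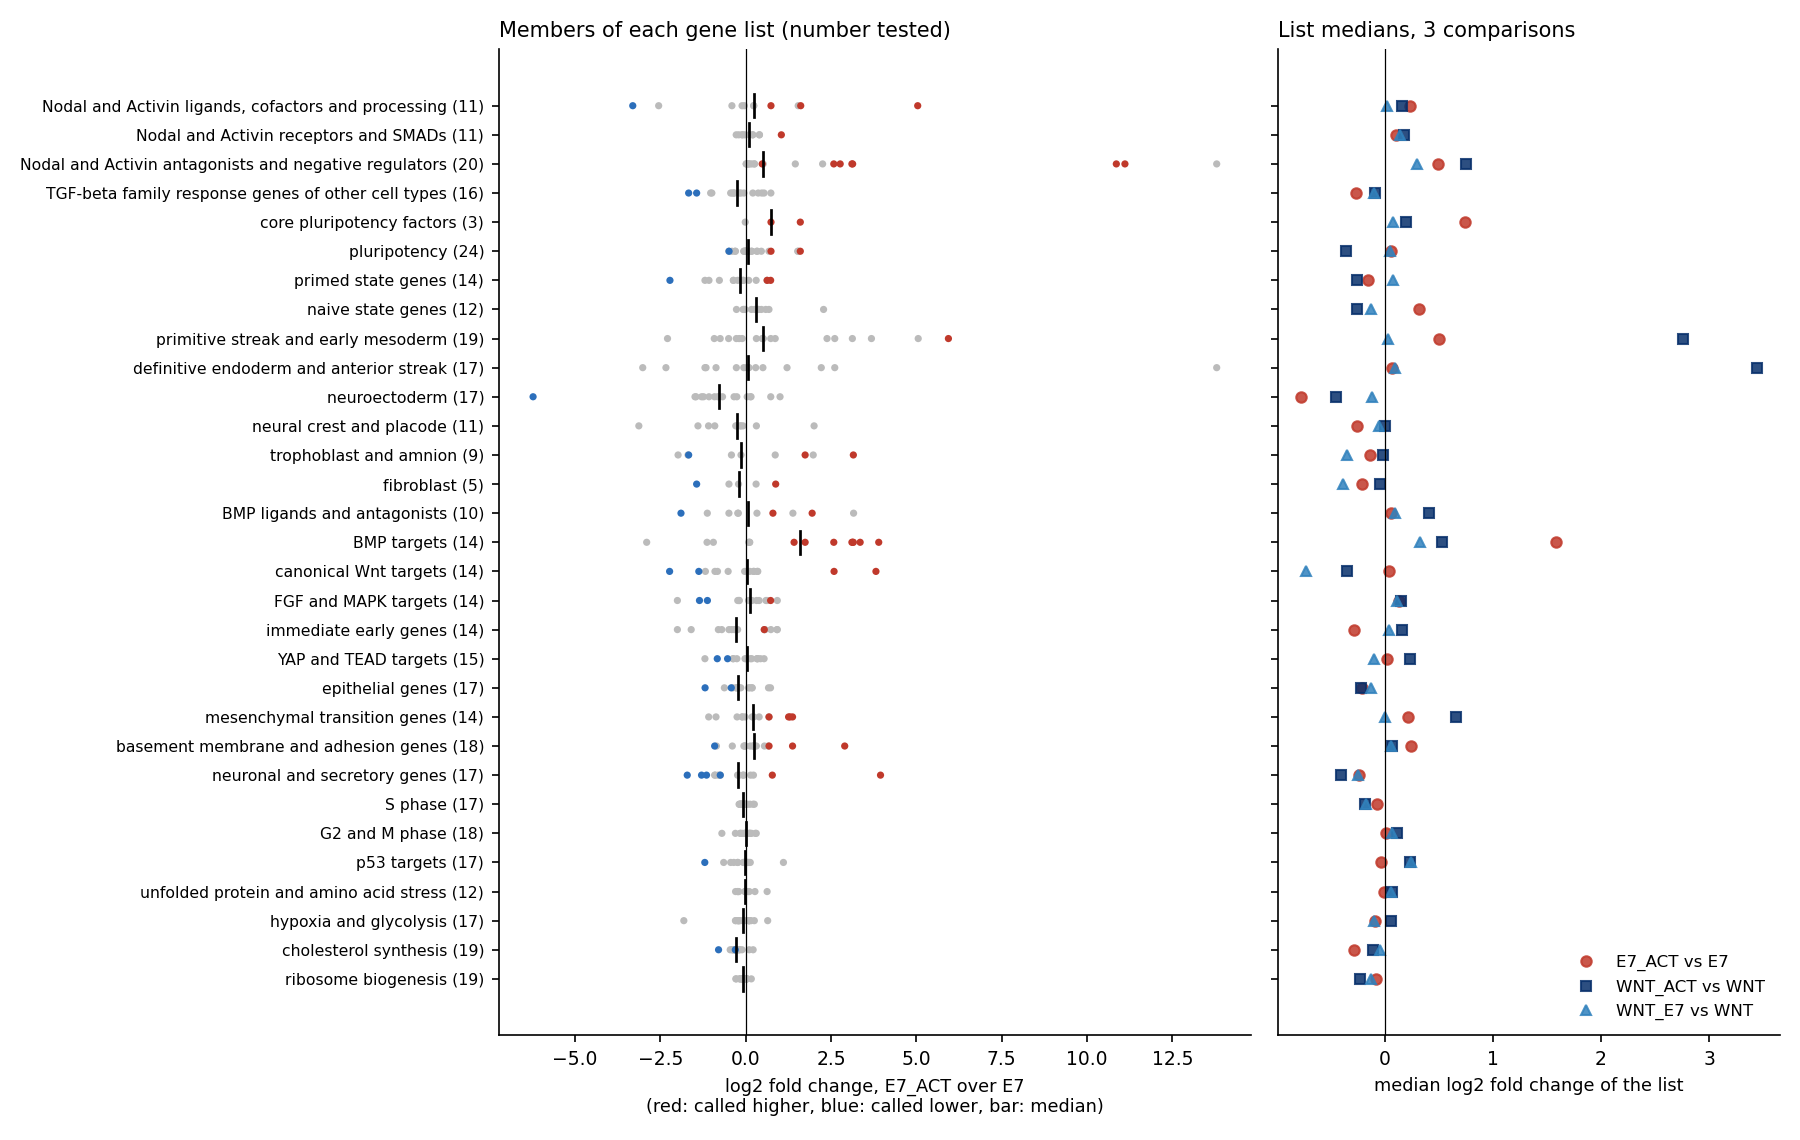
Left, the log2 fold change of E7_ACT over E7 for every tested member of 31 gene lists, with genes called higher in red, genes called lower in blue and the list median as a black bar. Right, the median of each list in E7_ACT against E7 (circles), WNT_ACT against WNT (squares) and WNT_E7 against WNT (triangles), where the streak and endoderm lists stand at 2.76 and 3.44 in WNT_ACT against WNT and the BMP targets at 1.58 in E7_ACT against E7.

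A second day of culture without Activin A is measured in WNT_E7 against WNT, although these cells had Wnt3a on the first day and not on the second. That comparison called 7 genes of 17793, or 0.0393%, and all 7 were lower in WNT_E7. None was called higher, where 736 genes had an unadjusted p under 0.05, and DESeq2 called 62 genes in either direction. CHGA, lower in E7_ACT, was also called lower in WNT_E7 against WNT, with a log2 fold change of -1.12 beside -1.15. The 2 libraries of WNT_E7 differed much from each other for some genes called in E7_ACT against E7: LEFTY1 was at 0.793 and 10.9 CPM, NODAL at 6.96 and 38.5 CPM, and STOX2 at 13.5 and 52.9 CPM, replicate 2 being the higher each time.

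A second day with Activin A after Wnt3a is measured in WNT_ACT against WNT, which called 1648 genes, or 9.26%. Over all genes tested, 5.78% were called higher there and 3.48% lower, beside 2.54% and 1.62% in E7_ACT against E7. Of the 452 genes higher in E7_ACT, 209 were higher there as well, which is 46.2% of the 452 and 20.3% of the genes higher in WNT_ACT. Of the 289 lower genes 127 were lower there as well, or 43.9% and 20.5%. Another 6 and 7 genes were called in the opposite direction. LEFTY1 rose in WNT_ACT from 2.33 and 0.703 CPM to 198 and 36.7 CPM, and WNT3 from 0.940 and 2.11 CPM to 81.5 and 55.7 CPM. NODAL already stood at 31.5 and 49.5 CPM in WNT and reached 303 and 153 CPM in WNT_ACT, with an adjusted p of 0.117.

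The difference between 2 such changes was tested directly. Between E7_ACT against E7 and WNT_E7 against WNT it was called for 48 genes, or 0.27%, 34 of them with the larger log2 fold change in E7_ACT (0.191% of genes tested) and 14 with the smaller (0.0787%). NTS was among them, since it was at 7.47 and 12.2 CPM in WNT and 10.1 and 9.93 CPM in WNT_E7, a difference of 3.92 on the log2 scale with an adjusted p of 0.00609. ID1 was at 13.3 and 31.4 CPM in WNT and 15.6 and 42.1 CPM in WNT_E7, a difference of 3.01. NANOG, POU5F1, PCSK5 and MMP2 differed by 1.48, 0.74, 1.59 and 1.32, and IRX2 and SEZ6 by -2.75 and -2.83. LEFTY1, NODAL and STOX2 were not called different, with adjusted p-values of 0.186, 0.148 and 0.106. Without E7 replicate 1 no difference was called, with 1381 genes under an unadjusted p of 0.05, and without WNT_E7 replicate 2 the count was 121.

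Between E7_ACT against E7 and WNT_ACT against WNT the difference was called for 114 genes, or 0.641%, 48 with the larger value in E7_ACT (0.27%) and 66 with the smaller (0.371%). ID1 had a log2 fold change of 3.35 without Wnt3a and 0.59 after it, and PCSK5 1.61 and -0.28. NANOG had 1.60 and 0.39, and stood at 138 and 197 CPM in WNT and 187 and 251 CPM in WNT_ACT. DNMT3B had 0.32, which was not called, and -0.46, which was. CHRD fell without Wnt3a and rose after it, from 1.60 and 0.787 CPM to 5.62 and 2.51 CPM. SEMA6D, which encodes a semaphorin, did the same, at 9.55 and 3.50 CPM and then 2.34 and 1.09 CPM without Wnt3a, and at 1.25 and 0.506 CPM and then 5.93 and 2.38 CPM after it.

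BMP2 was called higher in WNT_ACT, where it stood at 47.9 and 9.04 CPM, and not in E7_ACT, and the difference was called at an adjusted p of 0.0414. APLNR, the apelin receptor of early mesoderm, was at 0.812 and 1.10 CPM in E7, 0.482 and 1.19 CPM in E7_ACT, and 51.6 and 25.9 CPM in WNT_ACT, with an adjusted p of 0.0482 for the difference. CD48 and GABRB2 likewise stood higher in replicate 1 of WNT_ACT, at 11.6 against 1.77 CPM and 56.1 against 7.93 CPM. Leaving out WNT_ACT replicate 2 raised the number of called differences to 225, and leaving out any other library of the 4 groups lowered it to between 12 and 48. With DESeq2's size factors in edgeR the difference missed the threshold for NANOG at an adjusted p of 0.0639, for DNMT3B at 0.0515 and for APLNR at 0.0508. Among the Nodal pathway genes PCSK5 was the 1 whose changes with and without Wnt3a were called different.

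**Figure D5:**
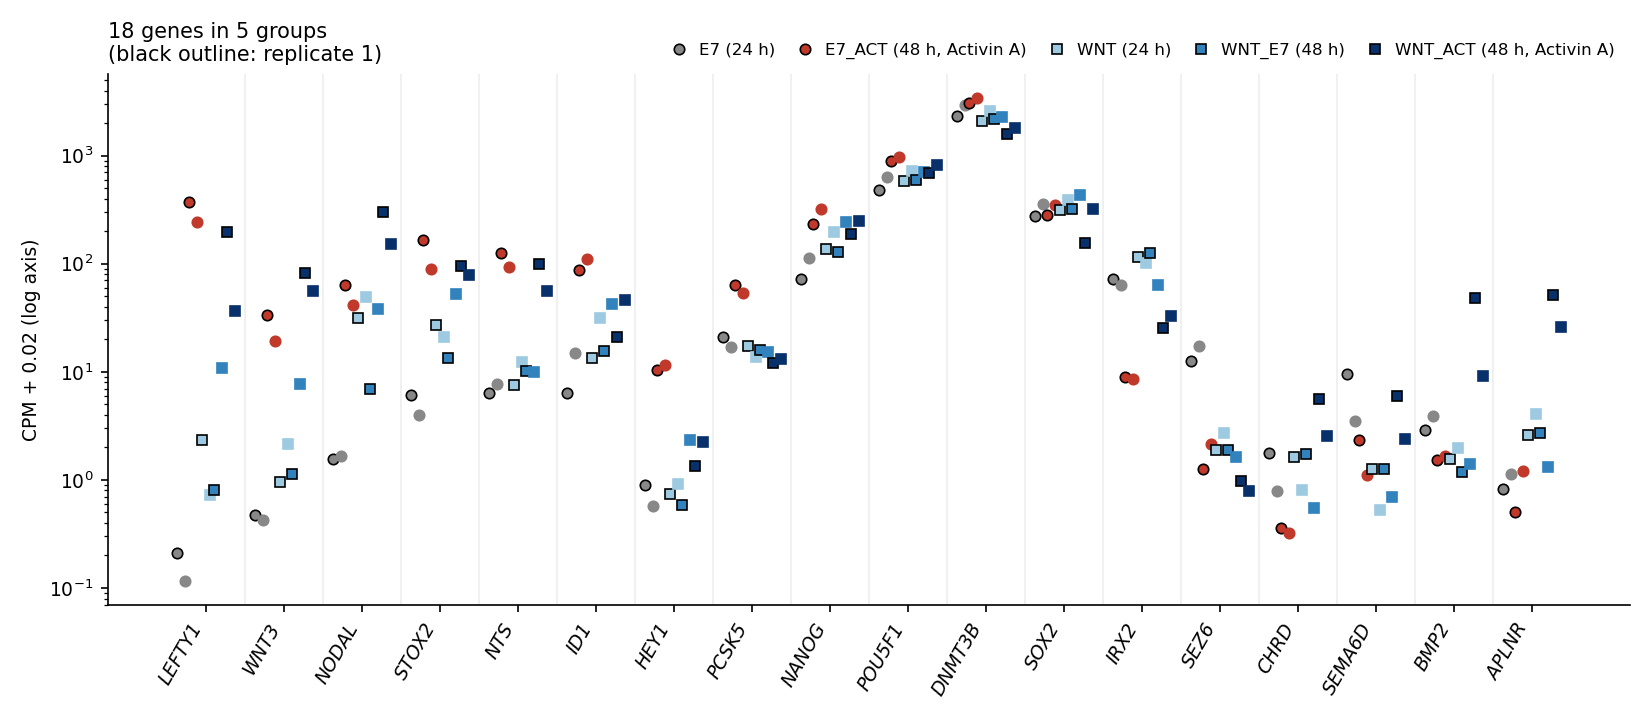
CPM plus 0.02 on a log axis for 18 genes in E7 (grey), E7_ACT (red), WNT, WNT_E7 and WNT_ACT (light to dark blue squares), 2 libraries each, with a black outline for replicate 1. NTS is high in E7_ACT and WNT_ACT and low in the other 3 groups, HEY1, ID1 and PCSK5 are highest in E7_ACT, and BMP2 and APLNR are high in WNT_ACT.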

How the data were processed

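RNA-seq read counts per gene were deposited by the authors as raw, unnormalised counts in a table for each replicate number. featureCounts is listed in the submitters' processing notes, and the aligner, genome build and strand setting of these counts are not given in the sources used here. The tables were joined on gene identifier, which gave 27348 genes, of which 27322 took a symbol from RefSeq. The replicate 1 library of untreated cells with CPI-203 was left out, because its column followed another gene order: its Spearman correlation with the other libraries was at most 0.00657 in size as deposited, and 0.954 to 0.986 in the order of the other table. The 15 other libraries of 8 groups were fitted in edgeR 4.0.16 (R 4.3.3) with filterByExpr, TMM scaling and the quasi-likelihood test, with group and replicate number as terms and 6 residual degrees of freedom. All 17793 genes that passed the filter were tested, and p-values were adjusted over them by the method of Benjamini and Hochberg. Same-numbered replicates deviated together in every pair of groups (correlation 0.456 to 0.899 over 13976 genes), which is why the replicate number is a block. Standard errors were computed from the fold change and the F statistic, and CPM from TMM-scaled totals. Named genes were the 12 called genes with the largest change in each direction at a mean of 1 CPM or more, all pathway members, up to 4 called members of each other list, STOX2 and NTS, and the 5 largest called differences in each direction. Results for a few genes that the rule selects are not reported here. Other genes, such as TBXT, SOX1 and BMP4, were chosen after their values were seen. The members and lists were chosen with earlier results of these data known. Counts for 17657 genes of this comparison were simulated once from the fitted model, with changes set only in genes with a mean of 1 CPM or more. Of these changes 77.0% of 2-fold and 100.0% of 4-fold ones were recovered, and 5.85% of calls were false. Such counts obey the model and its replicate block, so they cannot show whether the real counts do. DESeq2 1.42.0, other scalings, other filters and leaving out libraries were alternatives. The peak data were not used here.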

Additional observations from a re-analysis of the deposited data

Results flagged for a closer look

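The change from E7 to E7_ACT was compared with that from WNT to WNT_E7, and among the named genes 15 had a called difference between the log2 fold changes, with adjusted p-values from 0.00609 to 0.0472 in edgeR's quasi-likelihood test. The log2 fold change of E7_ACT against E7 was the higher in 10 of them. The difference was 5.92 for TTC29, 5.33 for HAGLR, 4.13 for the receptor gene LPAR6, 3.92 for NTS, 3.65 for LINC02714 and 3.01 for ID1. It was 1.59 for PCSK5, 1.48 for NANOG, 1.32 for MMP2 and 0.74 for POU5F1. In the other 5 that log2 fold change was the lower. The difference was -3.10 for the semaphorin receptor gene NRP1, -2.83 for SEZ6, -2.75 for IRX2, -2.09 for FOXL2NB and -1.48 for FOSL1. TTC29 had 4 counts in E7 and 20 in E7_ACT, and LINC02714 had 14 and 67, so both rest on few reads. The log2 fold change of TTC29 was 2.31 in E7_ACT against E7, which was not called. In WNT_E7 against WNT it was -3.61, which was called. For LINC02714 the values were 2.29, which was called, and -1.36, which was not.

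The same comparison with the change from WNT to WNT_ACT gave a called difference for 21 named genes, with adjusted p-values from 0.00272 to 0.0497. It was positive for 9, at 5.67 for TTC29, 4.39 for HAGLR, 3.39 for LINC02714, 2.81 for the cadherin gene CDH6, 2.76 for ID1, 2.70 for LPAR6, 1.90 for PCSK5, 1.21 for NANOG and 0.79 for DNMT3B. It was negative for 12. Among genes of signalling and patterning it was -5.02 for BMP2, -3.70 for APLNR, -3.64 for CHRD, -1.82 for PHLDA1, -1.73 for DUSP4 and -1.35 for FOSL1. Among genes of neurons and the matrix it was -4.86 for the GABA receptor subunit GABRB2, -4.12 for RGS8, -4.09 for SEMA6D, -1.42 for NEFL and -0.87 for MMP14. CD48 had -12.34, which depends on the prior count because WNT had no count of it. TTC29 was called lower in WNT_ACT against WNT, with a log2 fold change of -3.37, and was not called in E7_ACT against E7.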

How the results depend on the processing

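With no replicate block the count fell from 741 to 50 genes (33 higher, 17 lower), from 1648 to 112 in WNT_ACT against WNT, and from 7 to 0 in WNT_E7 against WNT. The differences fell from 48 to 0 (573 with an unadjusted p under 0.05) against WNT_E7 and from 114 to 1 against WNT_ACT. Of the 74 named genes called, 18 were called without the block, all in the same direction. DESeq2 with the block called 1264 genes (699 higher, 565 lower), 62 in WNT_E7 against WNT, and 322 and 399 differences. With the groups compared fitted alone, 485 genes were lower, 188 and 233 differences were called, and 32 genes were called in WNT_E7 against WNT, a fit chosen after seeing the data. Leaving out a library gave 109 to 226 calls (79 to 145 higher, 30 to 84 lower), 196 to 1246 in WNT_ACT against WNT, 1 to 6 in WNT_E7 against WNT, and 0 to 121 and 12 to 225 differences, where the lone library of a group is assumed to vary like the others. The cause of these shifts was not tested. None of the 74 changed direction under an alternative, with 65 of them tested under the stricter filter. The alternatives reuse the same libraries and the 74 were chosen as called genes, so this is no independent support. Scaling by library totals alone lost the calls of DUSP6, BMP7 and IER2, with adjusted p-values of 0.0584, 0.0546 and 0.0531, and those of the differences against WNT_ACT for PHLDA1 (0.0606) and FOSL1 (0.0508), and moved the median log2 fold change of all genes from -0.00029 to -0.017. Among the same differences, DESeq2's size factors lost NANOG, DNMT3B, APLNR, LPAR6 and RGS8 (0.0508 to 0.0639), and the stricter filter lost NANOG, DNMT3B, APLNR, PHLDA1, LPAR6 and GABRB2 (0.0505 to 0.0700). With 2 libraries a group, small changes and genes near 0 counts in E7 are the least certain.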
